A study of Mus musculus with 6 samples.

Results

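CpG methylation was mapped along the genes of 3 homeobox transcription factors, Cux1, Cux2 and Satb1, in the dentate gyrus of mice kept in an enriched environment (ENR) or in standard cages (STD). A site was the cytosine of a CpG on a single strand. It was counted for a gene when it lay between 1 kb upstream of the gene start and the gene end (GENCODE M21 annotation, mm10 build). Of 890041 sites with a value in all 6 libraries, 578 met this rule, with 137 in Cux1, 293 in Cux2 and 148 in Satb1. Reduced representation bisulfite sequencing (RRBS) cuts DNA at CCGG and reads cytosines that bisulfite leaves unconverted as methylated. It was applied to dissected dentate gyrus of 6 female C57BL/6JRj mice aged 4.5 months, 3 per group, and the labels name no allele or drug for either group. ENR mice lived in a large enclosure with tunnels and toys and STD mice in plain cages with fewer cage mates, so space, objects and group size cannot be told apart. Per the study's methods, the enriched mice of an experiment lived together, so the enrichment and the shared enclosure cannot be told apart either.

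Cux1 and Cux2 encode the mouse counterparts of the fly Cut protein, which bind DNA through CUT repeats and a homeodomain and mostly repress transcription. In the cortex both are known from upper-layer neurons, where they shape dendrites and spines. Satb1 encodes a chromatin organiser with CUT-like domains and a homeodomain that binds AT-rich DNA and is known from T cells and from interneurons. CpG-rich gene starts are usually free of methylation in all tissues, whereas CpGs inside transcribed genes are usually methylated.

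The means over all 890041 sites lay between 22.5% and 24.3% in STD and between 21.3% and 24.2% in ENR, and the library numbered 3 was the lowest of each group. Values below are in the order of replicates 1 to 3. Each percentage rests on at least 10 reads by the authors' filter, but the number of reads behind it is unknown, so no interval for counting error is given. The tissue was bulk, so a different mix of cells and a different methylation within cells cannot be told apart. Within 1 kb of the starts of 24 of 30 cell type marker genes that held sites, the means of all 7 marker lists overlapped between the groups (two-sided exact permutation test, p between 0.2 and 0.9). Of the 24 genes taken singly, the groups did not overlap at 3, all lower in ENR, which were Calb1 (2.08% in STD and 0.916% in ENR), the pyramidal neuron marker Wfs1 (2.82% and 1.12%) and Aldh1l1 (33.1% and 31.5%). The nearest measure over the table was tiles of 1 kb, where groups did not overlap at 8.88% and were lower in ENR without overlap at 5.30%. The 5 dentate granule neuron markers (Prox1, Calb1, C1ql2, Dsp and Neurod1) were at 1.86% in STD and 1.31% in ENR. The 4 astrocyte markers (Aldh1l1, Gfap, Slc1a3 and Aqp4) were at 27.9% and 23.5%, and each of the 4 had a lower mean in ENR. The interneuron list was at 15.2% in STD replicate 2 and between 1.32% and 2.96% in the other libraries, a value set by a single site of Sst at 54.8%. Methylation at these starts does not by itself identify a cell type, and the part of cell mix in the results was not tested.

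The 3 genes differed widely in level. Mean methylation of Cux2 was 37.7%, 36.5% and 33.6% in STD and 36.1%, 34.3% and 31.0% in ENR. Its average of 34.9% over the 6 libraries was above that of 94.7% of 6845 genes with at least 50 sites, whose median was 6.30%. Cux1 was at 18.4%, 18.0% and 18.2% in STD and at 17.7%, 19.0% and 17.1% in ENR. Satb1 was at 8.0%, 7.75% and 7.71% in STD and at 8.10%, 7.61% and 7.48% in ENR. The 3 genes thus kept the order Cux2, Cux1, Satb1 in every library, and no level of a gene reached that of its neighbour in this order.

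The difference between housing groups was small for each gene as a whole. Cux2 averaged 35.9% ± 2.11 (SD, n = 3) for STD and 33.8% ± 2.56 (SD, n = 3) for ENR. The difference (ENR minus STD) of -2.09 percentage points was within the spread of the mice (two-sided exact permutation test, p = 0.4, with 0.1 the smallest p that 3 against 3 allows). It was -0.699 points without ENR replicate 3, -1.20 without STD replicate 1, -3.22 without ENR replicate 1 and -3.26 without STD replicate 3. Among the 6845 genes, 3.89% had a lower difference, and the median difference was -0.134 points. Cux1 averaged 18.2% ± 0.194 (SD, n = 3) and 18.0% ± 0.975 (SD, n = 3), and the difference of -0.215 points gave an exact permutation p of 0.7. Satb1 averaged 7.82% ± 0.157 (SD, n = 3) and 7.73% ± 0.324 (SD, n = 3), with a difference of -0.0912 points and an exact permutation p of 0.6. The directions of Cux1 and Satb1 turned with the scaling and without ENR replicate 3. The groups overlapped for all 3 genes, whereas they did not overlap for 7.49% of the 6845 genes.

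**Figure D1:**
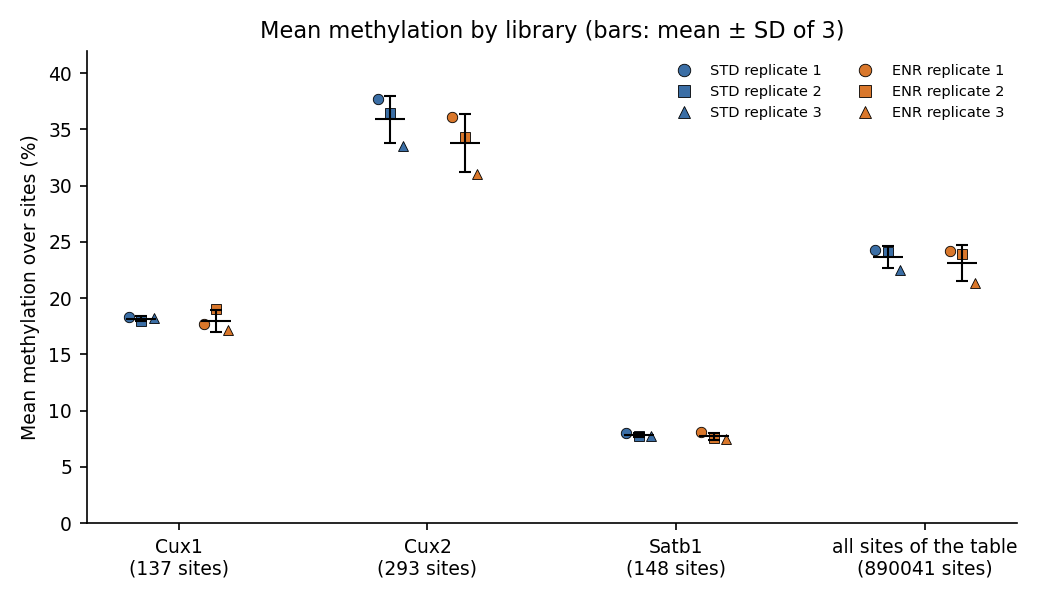
Mean methylation (%, y axis) over the sites of Cux1, Cux2, Satb1 and the whole table (x axis) in each library, with circles, squares and triangles for replicates 1, 2 and 3 and bars for mean ± SD of 3. Cux2 lay between 31.0% and 37.7%, above Cux1 (17.1% to 19.0%) and Satb1 (7.48% to 8.10%), and STD (blue) and ENR (orange) overlapped for each gene.

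The levels of single sites differed in kind between the genes. In Satb1, 138 of 148 sites (93.2%) averaged under 20% over the 6 libraries, 2 lay between 20% and 80% and 8 were above 80%. In Cux1, 108 of 137 sites (78.8%) were under 20%, 12 were between 20% and 80% and 17 were above 80%. In Cux2, 149 of 293 sites (50.9%) were under 20%, 90 (30.7%) lay between 20% and 80% and 54 (18.4%) were above 80%. Over all sites together, 70% were under 20%, 14.6% between 20% and 80% and 15.5% above 80%. Of the 3 genes, Cux2 held the most sites of intermediate level, where some DNA molecules of the tissue were methylated and others were not. Sites at 0% in all 6 libraries numbered 74 (50%) in Satb1, 43 (31.4%) in Cux1 and 28 (9.56%) in Cux2, against 29.8% of the table.

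**Figure D2:**
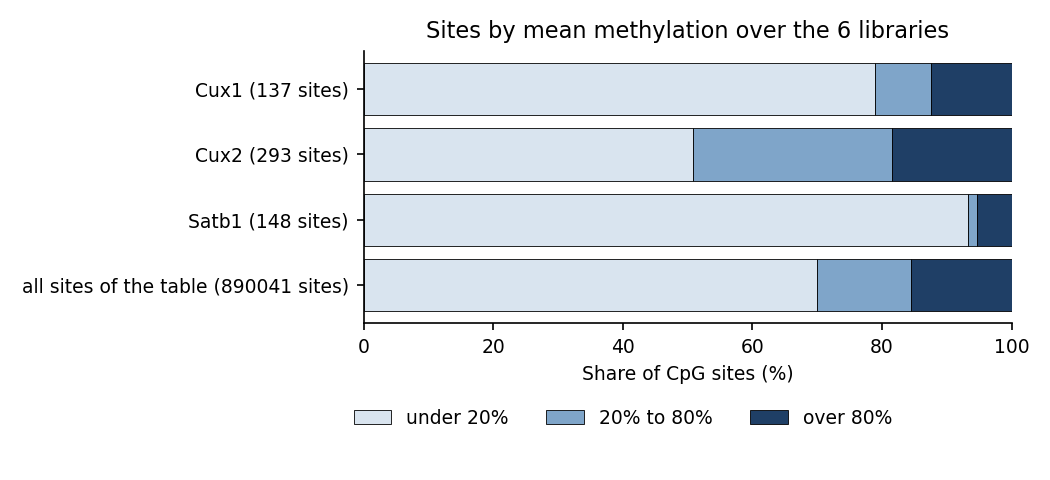
Share of CpG sites (%, x axis) with a mean over the 6 libraries under 20%, of 20% to 80% and over 80% in each gene and in the whole table (y axis). The middle class took 30.7% of Cux2, 8.76% of Cux1, 1.35% of Satb1 and 14.6% of all sites.

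The position of these sites was mapped next. Cux2 (ENSMUSG00000042589.18) lies on the minus strand of chromosome 5 from 121856366 to 122050102 and was covered with 1.5 sites per kb. Cux1 (ENSMUSG00000029705.17, minus strand of chromosome 5, 136248135 to 136567490) was covered with 0.428 sites per kb, and Satb1 (ENSMUSG00000023927.15, minus strand of chromosome 17, 51736187 to 51833290) with 1.51. RRBS sites come in groups around CCGG, so neighbouring sites up to 200 bp apart were joined into clusters of at least 5 sites. Sites of a cluster share reads and are not independent. This gave 8 clusters with 122 sites in Cux1, 21 clusters with 258 sites in Cux2 and 4 clusters with 135 sites in Satb1. Clusters were numbered from the gene start in the direction of transcription.

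**Figure D3:**
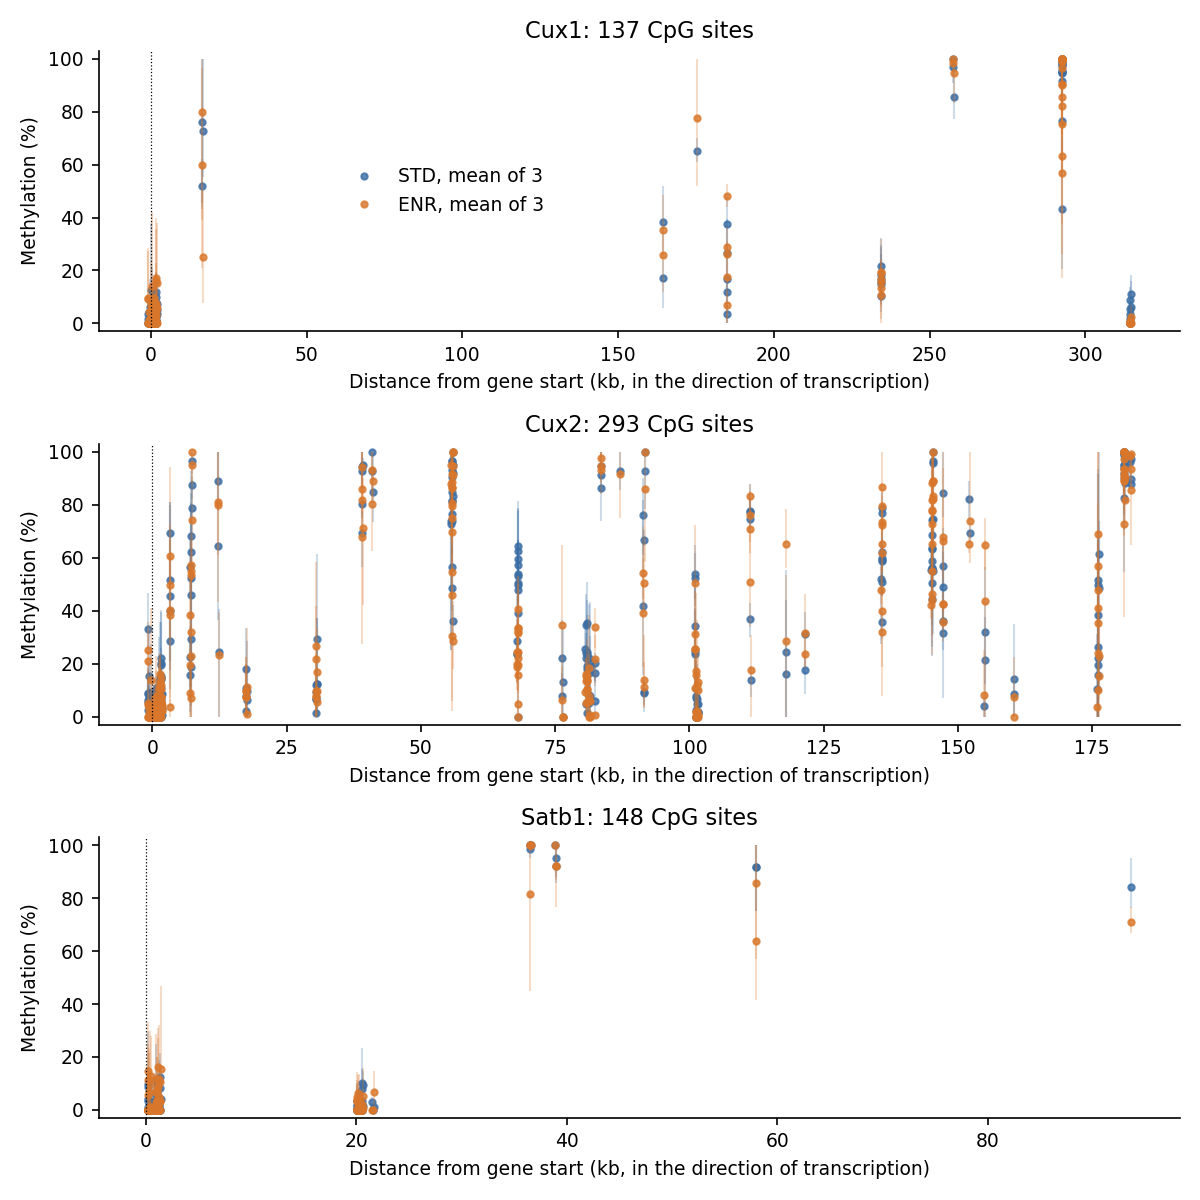
Methylation (%, y axis) of every site of Cux1, Cux2 and Satb1 against its distance from the gene start (kb, x axis, dotted line at the start), with blue points for the mean of 3 STD and orange points for the mean of 3 ENR libraries and thin lines from the lowest to the highest library. Sites near the starts were mostly under 20%, the sites of Satb1 farthest from its start were mostly above 80%, and Cux2 was under 20% just inside its start, above 80% at its far end and of all levels between.

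Close to its start, Cux2 was nearly unmethylated. Cluster 2, the nearest to the gene start (12 sites, upstream at -0.285 kb), averaged 0, 2.30% and 0 in STD and 0, 4.41% and 0 in ENR. Cluster 3 (27 sites, intron 1, 0.595 kb into the gene) was at 1.51% in STD and 1.38% in ENR. Cluster 4 (36 sites, 1.52 kb) was at 7.20% and 5.48%. Further inside, 5 clusters that lay over 1 kb from every annotated start of Cux2 were also under 20%, all in intron 2. Cluster 15 held the most sites of them (22, at 101 kb from the start) and was at 11.9%, 14.5% and 6.17% in STD and 9.71%, 10.2% and 10% in ENR. Cluster 12 (10 sites, 80.9 kb) was at 29.4%, 19.8% and 13.1% in STD and 17.1%, 13.4% and 5.32% in ENR. Cluster 8 (8 sites, 30.5 kb) was at 19.1%, 11.1% and 3.56% in STD and 16.4%, 11.8% and 11.5% in ENR. The groups overlapped at all 3. Highly methylated clusters of Cux2 lay at 39.1 kb (cluster 9, 83.3%) and in a coding exon at 181 kb (cluster 21, 94.6%).

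At cluster 20, which lies in coding exon 16 of Cux2-202, the coding transcript with the longest genomic span, single sites varied most between mice. Its 10 sites ranged over a median of 73.9 percentage points across the 6 libraries. The cluster mean was 46.4%, 20% and 36.7% in STD and 38.5%, 39.3% and 19.9% in ENR. One site of this cluster, at position 121873893, was at 8.70%, 36.8% and 100% in STD and at 0, 38.9% and 6.67% in ENR. The 2 groups overlapped at this site, and the STD mice alone took up most of the range of its values.

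Differences of single sites between ENR and STD were examined next. No site of the 3 genes passed limma at an adjusted p under 0.05 with a difference over 25 percentage points. Nor did any of 615152 varying sites of the table (0% called), and the smallest adjusted p was 0.852. By size alone, group means differed by over 25 points at 17 of 293 sites of Cux2 (5.80%), at 1 of Cux1 and at 1 of Satb1, against 1.94% of all sites. Among sites between 20% and 80% this held for 16 of 90 in Cux2 (17.8%), against 11.0% of such sites in the table. Of the 17 sites of Cux2, 12 were lower and 5 higher in ENR, and 1.23% of all sites were lower in ENR by as much. Of the 17, 9 also had groups that did not overlap (0.810% in the table). Cluster 11, a stretch of 135 bp, held 7 of the 17, and the groups did not overlap at 6 of its sites. Sites of a cluster share reads, so these counts are not of independent sites along the gene. Without ENR replicate 3 the split of sites over 25 points into lower and higher was 11 to 11. Without STD replicate 3 it was 16 to 4, and without both it was 14 to 10. Over all sites the split moved likewise, from 10987 lower and 6281 higher to 9079 and 14048 without ENR replicate 3 and to 17503 and 5761 without STD replicate 3. The groups did not overlap at 27 sites of Cux2 (9.22%), 21 of them lower and 6 higher in ENR, at 5 of Cux1 and at 2 of Satb1. In the table this held for 3.99% of sites, and 2.34% were lower in ENR without overlap. Without ENR replicate 3 the split in Cux2 was 32 lower to 21 higher and without STD replicate 3 it was 39 to 13, where 2 mice against 3 leave less room for overlap. In the table the groups then did not overlap at 8.80% of sites (36136 lower and 42147 higher) and at 8.78% (50373 and 27758), so the direction over all sites turned without ENR replicate 3. At an unadjusted limma p under 0.05 there were 9 of 260 varying sites in Cux2 (3.46%), all lower in ENR (1.64% of varying sites in the table), 3 of 89 in Cux1 and 1 of 70 in Satb1, with 2.68% in the table in either direction. In either direction the share for Cux2 was close to that background. Lower in ENR it was 3.46% against 1.64%, where sites of a cluster are not independent.

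Among the 21 clusters of Cux2, 16 were lower and 5 higher in ENR. Without ENR replicate 3, and likewise without STD replicate 1, these numbers were 12 and 9. The nearest measure over the table was genes with at least 50 sites, where 59.0% of 6845 had a lower mean in ENR. The groups did not overlap at clusters 1, 11 and 13, all lower in ENR, compared with 9.06% of 43613 clusters in the table and 5.40% lower in ENR. Lower clusters without overlap numbered 8 without STD replicate 3 and 6 without ENR replicate 1. There were 4 lower and 1 higher without ENR replicate 3, and 3 lower and 1 higher without STD replicate 1. Fewer mice leave less room for overlap, and the share over all clusters was not counted at these settings. In limma, 2 of the 21 clusters had an unadjusted p under 0.05, both lower in ENR (4.02% in the table, 2.50% lower), and the smallest adjusted p was 1.00. The clusters described next were singled out after their values had been seen.

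**Figure D4:**
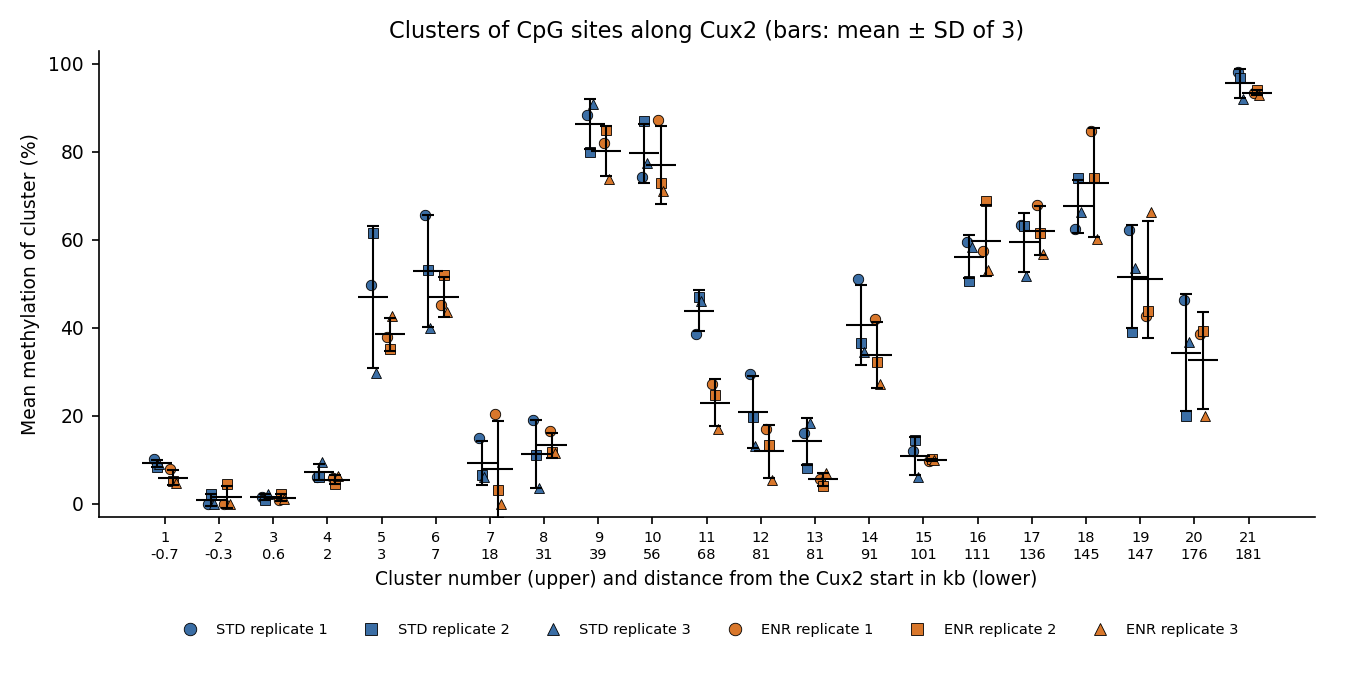
Mean methylation (%, y axis) of the 21 clusters of Cux2 in each library, in order of distance from the gene start (x axis, cluster number above and kb below), with bars for mean ± SD of 3 STD (blue) or 3 ENR (orange) libraries. The groups were apart at cluster 11 (38.6% to 46.9% against 17% to 27.3%), cluster 13 and cluster 1, and overlapped at the other clusters.

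The sequences of these 3 clusters are shown because their groups were apart, and that of cluster 16 because it holds a CpG the study examined in aged mice. They are read from the GRCm38.p6 (mm10) reference on the strand of the gene, 5′ to 3′. Capitals mark CpGs with a covered cytosine. Cluster 1 is chr5:122050708-122050945 (minus strand, upstream of the gene), cluster 11 is chr5:121982012-121982157, cluster 13 is chr5:121968642-121968755 and cluster 16 is chr5:121938697-121938842 (all minus strand, intron 2 of Cux2-202). Each holds 2 CCGG sites.
Cux2 cluster 1: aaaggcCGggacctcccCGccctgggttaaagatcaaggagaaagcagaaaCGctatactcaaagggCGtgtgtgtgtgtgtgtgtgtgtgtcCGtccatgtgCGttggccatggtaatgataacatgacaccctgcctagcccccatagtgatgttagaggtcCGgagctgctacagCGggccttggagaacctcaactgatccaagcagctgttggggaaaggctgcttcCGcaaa
Cux2 cluster 11: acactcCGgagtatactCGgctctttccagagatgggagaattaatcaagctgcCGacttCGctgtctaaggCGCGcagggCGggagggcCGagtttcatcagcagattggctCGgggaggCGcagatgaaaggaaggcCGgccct
Cux2 cluster 13: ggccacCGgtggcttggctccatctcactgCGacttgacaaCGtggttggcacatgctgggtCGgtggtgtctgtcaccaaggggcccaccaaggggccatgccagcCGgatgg
Cux2 cluster 16: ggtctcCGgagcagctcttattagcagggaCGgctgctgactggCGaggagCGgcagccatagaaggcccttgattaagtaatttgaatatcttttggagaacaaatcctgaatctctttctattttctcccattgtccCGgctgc

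Cluster 11 lies 68.0 kb from the start of Cux2, 20.2 kb from the nearest annotated start of the gene. All 11 CpGs of its sequence were covered, with 14 sites. Its mean was 38.6%, 46.9% and 46.1% in STD and 27.3%, 24.6% and 17% in ENR, so every ENR mouse was below every STD mouse. The group means were 43.9% ± 4.63 (SD, n = 3) and 23.0% ± 5.34 (SD, n = 3). The difference of -20.9 percentage points had a limma SE of 6.61, an unadjusted limma p of 0.0137 and an adjusted p of 1.00 over 43613 clusters. The exact permutation p was 0.1, the smallest possible, which follows whenever 3 against 3 do not overlap. Leaving out any library kept the difference between -23.6 and -17.9 points, and subtracting each library's mean over sites of 20% to 80% gave -18.5.

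Within cluster 11, 13 of 14 sites were lower in ENR, and the remaining site was at 0 in every library. The groups did not overlap at 6 sites, and 7 sites differed by over 25 points. At position 121982082 (plus strand) methylation was 48.7%, 81.5% and 57.1% in STD and 15.4%, 25% and 33.3% in ENR, a difference of -37.9 points. The site at 121982075 was at 50%, 78.6% and 43.8% in STD and at 13.8%, 20% and 25% in ENR. The site at 121982043 was at 46.5%, 65.5% and 47.1% in STD and at 16.7%, 30% and 0 in ENR. These are the 3 largest differences towards lower methylation in Cux2 among sites whose groups did not overlap, and each had an adjusted limma p of 0.852. Adjacent cytosines of a CpG on opposite strands are measured by separate reads. The 7 plus-strand sites averaged 43.5%, 59.6% and 36.5% in STD and 16.2%, 22.7% and 17.4% in ENR. The 7 minus-strand sites averaged 33.7%, 34.3% and 55.8% in STD and 38.4%, 26.5% and 16.6% in ENR, and there the groups overlapped. The mean difference was -27.7 points on the plus strand and -14.1 on the minus strand.

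**Figure D5:**
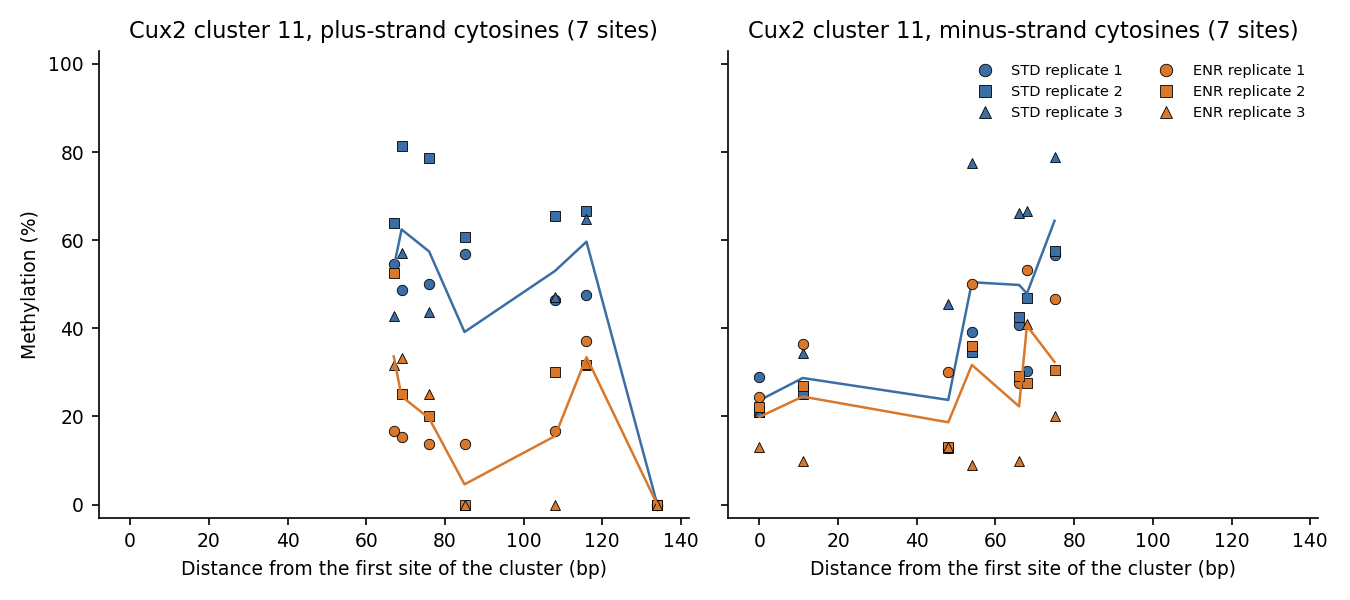
Methylation (%, y axis) of the sites of Cux2 cluster 11 in each library against the distance from the first site of the cluster in the direction of transcription (bp, x axis), with plus-strand cytosines on the left and minus-strand cytosines on the right and lines joining the means of 3 STD (blue) and 3 ENR (orange) libraries. The ENR mean was below the STD mean at 13 of 14 sites, and the last plus-strand site was at 0 in all libraries.

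Cluster 13 lies 81.4 kb from the start, also in intron 2. Its 7 sites averaged 16.1%, 8.14% and 18.3% in STD and 5.49%, 4.02% and 7.05% in ENR. The difference of -8.65 points had an unadjusted limma p of 0.0202 and an adjusted p of 1.00. It lay between -11.7 and -6.61 points when single libraries were left out. This cluster is also the 1 kb tile with the lowest limma p in Cux2, 0.0173 unadjusted and 1 adjusted. Cluster 1 (10 sites, upstream at -0.735 kb) was at 10.1%, 8.43% and 9.05% in STD and at 7.97%, 5.04% and 4.79% in ENR. The difference was -3.24 points, with an unadjusted limma p of 0.0778. Subtracting each library's mean over sites of 20% to 80% reduced the difference to -6.26 points at cluster 13 (exact permutation p = 0.5) and to -0.856 at cluster 1 (exact permutation p = 0.8).

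Both clusters 11 and 13 lie in intron 2 of Cux2-202, which spans 119 kb and held 136 sites in 11 clusters. Its mean was 43.3%, 41.8% and 36.4% in STD and 39.4%, 36.8% and 32.7% in ENR (difference -4.16 points, exact permutation p = 0.3). Of its 136 sites, 19 had groups that did not overlap, 14 of them lower in ENR (3.99% of sites in the table, 2.34% lower). Cluster 11 alone held 6 of these, all lower in ENR. In intron 1 (68 sites) the mean was 7.52%, 8.07% and 8.02% in STD and 6.24%, 5.76% and 6.86% in ENR. There the groups did not overlap and the difference was -1.59 points. The exact permutation p of 0.1 follows from the lack of overlap. The nearest measure over the table was tiles of 1 kb, where groups did not overlap at 8.88% (5.30% lower in ENR). Introns were not rerun with other scalings or with libraries left out. Introns 4 and 5 had higher values in ENR, with 62.3% ± 2.55 (SD, n = 3) for STD and 65.8% ± 6.08 (SD, n = 3) for ENR for intron 4 and 33.1% ± 2.10 (SD, n = 3) and 37.7% ± 4.21 (SD, n = 3) for intron 5. Exact permutation p-values were 0.4 and 0.2. By distance, sites between 50 and 100 kb from the start differed by -7.67 points (exact permutation p = 0.2) and those beyond 100 kb by 1.48 (exact permutation p = 0.5).

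Of the 6 sites of Cux2 that were higher in ENR without overlap, the one with the largest difference was at position 121932101 (minus strand, intron 2, 118 kb from the start). Methylation there was 55.6%, 17.4% and 0 in STD and 56.0%, 78.6% and 61.5% in ENR. The lowest ENR value thus exceeded the highest STD value by less than a point. The group means were 24.3% ± 28.4 (SD, n = 3) and 65.4% ± 11.8 (SD, n = 3), and the adjusted limma p was 0.852. Its surroundings are chr5:121932071-121932131, read as above with the covered CpG in capitals.
Cux2 site: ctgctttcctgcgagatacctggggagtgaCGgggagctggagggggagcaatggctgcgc

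The groups did not overlap at 3 of the 30 tiles of 1 kb in Cux2, 2 of them lower in ENR, against 8.88% of tiles in the table and 5.30% lower in ENR. Of the 30 tiles, 3 had an unadjusted limma p under 0.05 (3.98% in the table). Of these, 2 were lower in ENR (2.50% in the table). The other began at 121895001 in intron 5, with 20.1%, 18.4% and 18.8% in STD and 40.7%, 51.2% and 25% in ENR. It was higher in ENR and holds 3 sites, and its unadjusted p was 0.0465 and its adjusted p was 1.

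The CpG of Cux2 that the study followed in aged mice was covered here on its minus strand, 111 kb from the start. It was at 42.9%, 30.2% and 37.9% in STD and at 50%, 68.9% and 33.9% in ENR. The means were 37.0% ± 6.37 (SD, n = 3) and 50.9% ± 17.5 (SD, n = 3), the groups overlapped, and the difference of 13.9 points gave an exact permutation p of 0.3 and an adjusted limma p of 0.852. Cluster 16, which contains it, was at 59.5%, 50.6% and 58.4% in STD and at 57.5%, 68.8% and 53.1% in ENR.

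At CpGs of Cux2 covered on both strands, the strands did not always go the same way. There were 47 such CpGs, and the strands differed by a median of 7.55 percentage points in a library. The direction of ENR minus STD was the same on both strands at 16 of them and opposite at 23.

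In Cux1, methylation was almost absent around the start and nearly complete in a coding exon far inside. The 4 clusters around the start had means between 0.708% and 2.37%. Cluster 2, the nearest to the gene start (9 sites, upstream at -0.107 kb), was at 1.88%, 0.625% and 2.63% in STD and at 0, 3.12% and 0 in ENR. Cluster 7 (16 sites, 293 kb from the start) averaged 91.2%. It lies in a coding exon of other transcripts such as Cux1-201, inside intron 14 of Cux1-211, the coding transcript with the longest genomic span. Cluster 6 (6 sites, intron 9) was at 14%, 24.9% and 9.89% in STD and at 17.2%, 19.0% and 11.3% in ENR. Groups overlapped at 7 of the 8 clusters of Cux1, so that the share without overlap was near the 9.06% of clusters in the table (5.40% lower in ENR).

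Cluster 8 of Cux1 is the one without overlap, and like cluster 6 it is under 20% over 1 kb from every start. It lies in intron 18 of Cux1-211, 314 kb from the gene start. Its 10 sites averaged 5.45%, 1.75% and 4.15% in STD and 0, 0.690% and 0.230% in ENR. The difference of -3.48 percentage points had a limma SE of 0.937, an unadjusted p of 0.00618 and an adjusted p of 1.00. The difference was -1.09 points after each library's mean over sites of 20% to 80% was subtracted (exact permutation p = 0.8) and -0.495 with the median over sites in place of the mean (exact permutation p = 1). All values are near 0, where a few reads among those at a site set the percentage. Its sequence (chr5:136252947-136253103) is shown beside that of cluster 2 (chr5:136567562-136567628), since both are almost free of methylation while only the latter is at a start. Both are on the minus strand of GRCm38.p6, with covered CpGs in capitals.
Cux1 cluster 2: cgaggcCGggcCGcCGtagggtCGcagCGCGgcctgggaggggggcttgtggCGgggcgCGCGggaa
Cux1 cluster 8: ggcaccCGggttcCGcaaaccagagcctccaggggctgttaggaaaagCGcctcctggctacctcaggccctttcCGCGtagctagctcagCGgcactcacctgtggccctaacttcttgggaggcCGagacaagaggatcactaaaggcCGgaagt

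A single site of Cux1 differed by over 25 points. It lies at position 136550844 (plus strand, intron 1, 16.6 kb from the start) and was at 55.4%, 62.9% and 100% in STD and at 18.2%, 50% and 7.55% in ENR. Every ENR mouse was below every STD mouse, though ENR replicate 2 lay close to STD replicate 1. The means were 72.7% ± 23.9 (SD, n = 3) and 25.2% ± 22.1 (SD, n = 3), and the difference of -47.5 points had a limma SE of 18.3 and an adjusted p of 0.852. Its surroundings are chr5:136550814-136550874 (minus strand), with the CpG in capitals inside a CCGG.
Cux1 site: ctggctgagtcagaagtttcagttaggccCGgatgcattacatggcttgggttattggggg
Among the 9 tiles of Cux1, the lowest limma p was 0.0144, for the tile of cluster 8 (8 of its sites), with an adjusted p of 1. The lowest p of a tile higher in ENR was 0.321.

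Satb1 was little methylated at most covered sites. Cluster 1 (38 sites, 0.294 kb into the gene) averaged 0.364%, 1.60% and 0.773% in STD and 2.64%, 3.32% and 0 in ENR. Cluster 2 (56 sites, 1.10 kb) was at 1.84% in STD and 2.35% in ENR. Clusters 3 and 4 lie deeper inside, in the first exon of Satb1-211 where it does not code. Cluster 3 (33 sites) was at 0.919% and 1.05%. Cluster 4 (8 sites) was at 7.09%, 2.11% and 2.86% in STD and at 0, 2.0% and 1.34% in ENR. The groups of cluster 4, 1 of the 4 clusters, did not overlap (9.06% in the table), and its difference of -2.91 points had an unadjusted limma p of 0.0583. It rested in large part on STD replicate 1, without which it was -1.38 points. With the median over sites it was -0.758 points, and with each library's mean over sites of 20% to 80% subtracted it was -0.521 (exact permutation p = 1 for both). The sequence of cluster 1 (chr17:51832842-51833118, minus strand of GRCm38.p6) shows the density of CpGs at this start, with 40 CpGs of which 30 were covered (capitals). It overlaps an exon of Gm6934.
Satb1 cluster 1: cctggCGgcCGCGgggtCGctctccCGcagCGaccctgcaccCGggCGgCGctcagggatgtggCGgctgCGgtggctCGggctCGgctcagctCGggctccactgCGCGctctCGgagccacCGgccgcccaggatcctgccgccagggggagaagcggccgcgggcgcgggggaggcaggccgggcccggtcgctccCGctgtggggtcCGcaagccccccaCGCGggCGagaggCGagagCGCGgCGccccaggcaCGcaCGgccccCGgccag

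Methylated sites of Satb1 were few and far from its starts. The 7 intron sites over 1 kb from every start, all in intron 5 of Satb1-208, were at 97.6%, 98.0% and 98.3% in STD and at 96.7%, 90.2% and 98.6% in ENR. The 3 exon sites were at 93.7%, 81.7% and 92.1% in STD and at 92.3%, 58.9% and 69.4% in ENR (exact permutation p = 0.3). The single site of Satb1 with a difference over 25 points, at 51775345 in a coding exon, was at 100%, 75.0% and 100% in STD and at 100%, 50% and 41.7% in ENR, and its groups overlapped. None of the 8 tiles of Satb1 reached an unadjusted limma p under 0.05. The lowest p was 0.0695 for a tile lower in ENR (that of cluster 4) and 0.209 for a tile higher in ENR, the latter with 64 sites at 1.22%, 1.58% and 1.21% in STD and 2.05%, 2.73% and 1.59% in ENR. The groups did not overlap at these 2 of the 8 tiles, 1 lower and 1 higher in ENR (8.88% of tiles in the table, 5.30% lower).

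Relatives and partners of the 3 factors were also examined. The Onecut genes, whose proteins carry a single CUT domain, had differences of -0.107 (Onecut1), -0.602 (Onecut2) and -0.0245 points (Onecut3). Onecut2 held 5 of 160 sites, Onecut3 3 of 74 and Onecut1 0 of 104 with a difference over 25 points (1.94% in the table). Of genes reported as targets or partners, the histone deacetylase gene Hdac1 differed by -1.01 points, Sin3a, a corepressor gene, by -0.161, and the acetyltransferase gene Kat2b by 0.973. Xlr4b, reported as a target of Cux factors, had only 5 sites, at 87.5% in STD and 85.1% in ENR. No site of Hdac1 (50 sites), Sin3a (180), Kat2b (26) or Xlr4b differed by over 25 points. The groups overlapped at all 7 of these genes (exact permutation p between 0.3 and 1), and Xlr3b held no site.

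The genes whose mean followed that of each factor most closely over the 6 libraries were listed as a description. For Cux2 these were Plekhm2 (Pearson's r = 0.993), Dgkg (0.993) and Scube3 (0.991). For Cux1 they were Rai1 (0.989), E330009J07Rik (0.984) and Plekha2 (0.982), and for Satb1 Cars2 (0.999), Gm2018 (0.998) and 4930488L21Rik (0.992). They are the highest of 6845 genes over 6 points that share libraries, and between 68.5% and 76.4% of all genes had a positive r with a factor.

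The reference promoters were searched for short motifs linked to these factors. RefSeq windows from 250 bases before to 50 after a start (GRCm38.p6) matched Cux1 with 1, Cux2 with 2 and Satb1 with 5 windows. The letters ATCGAT, on either strand, occurred in 1 of the windows of Cux2 (chr5:122047776-122048075) and in none of the others, and in 0.925% of 32851 windows. The letters ATCAAT occurred in 2 overlapping windows of Satb1 and in 7.54% of all windows. The letters CCAAT occurred in 1 window of Satb1 and in 37.4% of all windows. A match is a description of the letters and not of a bound site.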

How the data were processed

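RRBS libraries of the dentate gyrus of 3 STD and 3 ENR mice were analysed. Per the labels, the authors trimmed reads with Trim Galore 0.4.0 and cutadapt 1.8.1, aligned them to mm10 with Bismark 0.16.1 and used methylKit 1.5.2. They kept cytosines with at least 10 reads. The deposited table holds the percent of methylated reads per site and library, without read numbers, so depth is unknown and the study's read-number test was not run. No column was unused (0).

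Sites, 1 kb tiles with at least 3 sites and clusters of at least 5 sites (gaps up to 200 bp) were fitted over the whole table with limma 3.58.1 in R 4.3.3 (variance trend, percent scale, Benjamini-Hochberg adjustment), after testing on simulated data. A call needed an adjusted p under 0.05 and a difference over 25 points. For gene means, all 20 regroupings of the libraries were enumerated (exact permutation test, two-sided). These p-values rest on the spread between libraries, which holds differences between mice and counting error of unknown size. Tables were handled in Python 3.11.15 with pandas 2.3.3.

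Genes, lists, and the rule for named items were chosen with earlier results of these data known. The rule named the cluster nearest each start, up to 3 clusters under 20% over 1 kb from starts, the 3 largest non-overlapping differences over 25 points in each direction and the tile of lowest p in each direction. Clusters were added to the tests after the data had been seen. Alternatives covered averaging, windows, scaling, thresholds, libraries left out and the replicate number as a block. A further gene of the list is not reported here.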

Additional observations from a re-analysis of the deposited data

How the results depend on the processing

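The lower mean of Cux2 in ENR kept its direction under every alternative run, though the replicate block could not change it by construction. That of Cux1 turned to 0.689 points (means of 1 kb tiles), 0.308 (sites within 1 kb of a start), 0.212 (sites of 20% to 80%), 0.287 (library mean subtracted), 0.270 (quantile normalization) and 0.202 (without ENR replicate 3). That of Satb1 turned to 0.384 (sites within 1 kb of a start), 0.411 (library mean subtracted), 0.151 (quantile normalization) and 0.0335 (without ENR replicate 3). With single libraries left out, the differences ran from -0.751 to 0.202 points (Cux1), -3.26 to -0.699 (Cux2) and -0.274 to 0.0335 (Satb1). Counts of sites over 25 points then ran from 1 to 4, from 20 to 22 and from 0 to 2. Over all sites the share over 25 points rose as well, from 1.94% with all libraries to between 2.60% and 3.42%. At a limit of 20 points there were 3 sites in Cux1 and 27 in Cux2, at 40 points 1 in Cux2 and 0 in Satb1. Group medians gave 2 in Cux1. Requiring no overlap left 9 in Cux2 and 0 in Satb1, and quantile normalization left 0 in Satb1. The cause of these changes was not tested beyond what each setting removes by construction. In limma 0 sites, tiles and clusters were called under all alternatives, with 15810 to 24040 sites, 2488 to 3860 tiles and 1485 to 2278 clusters at an unadjusted p under 0.05. The smallest adjusted p among them was 0.0508, for clusters without a variance trend, 0.121 for sites and 0.261 for tiles.

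Each library came from a different mouse, and a shared replicate number is not known to pair mice. Deviations from the group means correlated across sites at 0.0602, 0.0348 and 0.135 for numbers 1, 2 and 3, and not every library correlated best with its own number. The replicate number as a block leaves the differences at -0.215 (Cux1), -2.09 (Cux2) and -0.0912 points (Satb1) by construction. Exact sign-flip p-values with this block were 0.75, 0.25 and 0.5, where 0.25 is the smallest possible. The block gave 15810 sites, 3284 tiles and 1985 clusters at an unadjusted limma p under 0.05 in place of 16498, 2874 and 1752, and 0 calls. Percentages without read numbers weigh sites of any depth alike, and 3 mice per group limit what can be called.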

Other observations

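Sites whose groups were apart also lay outside the clusters described in the text. At 55.8 kb from the start of Cux2, in cluster 10, the site at 121994297 (plus strand) was at 66.4%, 88.0% and 100% in STD and at 56.7%, 44.4% and 63.0% in ENR. Its neighbour at 121994290 was at 89.2%, 89.8% and 100% in STD and at 63.3%, 65.7% and 80.4% in ENR. The groups did not overlap at either site, whereas the 12 plus-strand sites of this cluster together averaged 83.5% in STD and 76.7% in ENR and the 6 minus-strand sites 72.0% and 77.8%. In intron 1 of Cux2, the site at 122046721 was at 27.5%, 37.5% and 20.8% in STD and at 4.0%, 6.67% and 0 in ENR. Others were higher in ENR without overlap. In cluster 10 the site at 121994084 was at 82.9%, 97.4% and 96.0% in STD and at 100% in each ENR mouse. The site at 121966522 was at 91.3%, 94.4% and 73.8% in STD and at 96.7%, 96.2% and 100% in ENR, and that at 121967731 was at 23.0%, 24.1% and 13.3% in STD and at 25.9%, 41.2% and 34.8% in ENR. All 6 sites had an adjusted limma p of 0.852 and were chosen after their values were seen.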
